A study of Homo sapiens with 12 samples.

Results

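Activator protein 1 (AP-1) is a family of transcription factors, and 9 of its genes were followed here: FOS, FOSB, FOSL1, FOSL2, JUN, JUNB, JUND, ATF3 and BATF3. They were chosen by symbol from a table of read counts, in which they are 9 of 25382 symbols, and all 9 passed the low-count filter that left 15437 genes for testing. The cells were Cal27, an established human tongue squamous carcinoma line, labelled wild type. Every culture spent 5 days in conditioning and then 1 day replated, both on polyacrylamide gels with a collagen coat, and RNA was sequenced in 12 libraries, 3 per condition. Soft-to-soft cells stayed on gels of 0.48 kPa without treatment. Stiff-to-soft cells were conditioned on gels of 20 kPa and replated at 0.48 kPa. LPA-to-soft cells were conditioned at 0.48 kPa with lysophosphatidic acid (LPA), a lipid that signals through G protein-coupled receptors, and replated at 0.48 kPa. LPA-to-FAKi cells also had LPA during conditioning at 0.48 kPa but were replated at 0.48 kPa with a FAK inhibitor, focal adhesion kinase (FAK) being a kinase of integrin adhesions. Neither dose, nor the inhibitor's name, is given in the sources used here. The series design treats LPA-to-soft and stiff-to-soft as conditions that learned, and the other 2 as conditions that did not learn or forgot. The question asked of these genes is how their RNA differed between the conditions at the end of replating.

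AP-1 binds DNA as a dimer of basic leucine zipper (bZIP) proteins. JUN, JUNB and JUND can pair with each other or with a FOS protein, while FOS, FOSB, FOSL1 and FOSL2 need a partner of the JUN kind, and ATF3 and BATF3 are related bZIP factors that act largely as repressors. FOS, FOSB, JUN, JUNB and ATF3 are immediate early genes, whose transcription rises within minutes of growth factor, adhesion or stress signals and then falls again. FOSL1 is induced later and is held up by sustained ERK signalling, and in squamous carcinoma it is known for its part in invasion. In keratinocytes, AP-1 dimers act on proliferation genes, differentiation genes and matrix metalloproteinases.

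Total counts ran from 62953957 to 122311183 per library. Levels are CPM, a count over the library's total on a common scale, with TMM scaling. Calls use an adjusted p (Benjamini-Hochberg, over all genes tested) under 0.05. The 8 squamous epithelial markers were present, KRT5 at 2700 to 5780 CPM and TP63 at 250 to 502 CPM. The fibroblast genes COL3A1, THY1 and DCN, the leukocyte genes PTPRC and CD3E and the endothelial gene PECAM1 had medians of 0. Other genes of those lists were present, with medians of 16.4 CPM for COL1A1, 1.65 for COL1A2, 14.6 for CD68, 3.22 for CD14, 14.5 for CDH5 and 1.89 for VWF. Even numbers made up 42.88% and 42.18% of the counts from 1 to 19 in replicates 1 and 2 of soft-to-soft, and 96.8% to 97.85% elsewhere, so results against soft-to-soft are also given without both. Whether replicates are separate cultures is not in the labels, so the spread that p-values rest on is that of these samples and may be technical. In these bulk samples, fewer cells of a type and less RNA per cell cannot be told apart.

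The promoters of 5 immediate early members are shown because these genes had lower values in stiff-to-soft than in soft-to-soft cells in 3 of 3 pairs, ATF3 by a near tie, although none of them passed the edgeR test. Of the 9 members, 7 matched the RefSeq promoter table (GRCh38.p14), which has no entry for FOSL1 or BATF3. Each line gives the 150 bases before the start site, 5′ to 3′ on the gene's strand, with TATAAA and TGACNTCA in capitals. They lie at chr14:75278678-75278827 (plus strand) for FOS, chr19:45467846-45467995 (plus) for FOSB, chr19:12791336-12791485 (plus) for JUNB, chr1:58784048-58784197 (minus) for JUN and chr1:212565257-212565406 (plus) for the first of the ATF3 promoters.
FOS: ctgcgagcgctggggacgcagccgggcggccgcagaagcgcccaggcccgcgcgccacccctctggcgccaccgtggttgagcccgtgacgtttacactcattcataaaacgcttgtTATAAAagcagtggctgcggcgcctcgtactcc
FOSB: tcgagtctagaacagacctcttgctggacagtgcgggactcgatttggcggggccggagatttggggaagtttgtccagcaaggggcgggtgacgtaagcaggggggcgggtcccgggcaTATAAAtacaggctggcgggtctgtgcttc
JUNB: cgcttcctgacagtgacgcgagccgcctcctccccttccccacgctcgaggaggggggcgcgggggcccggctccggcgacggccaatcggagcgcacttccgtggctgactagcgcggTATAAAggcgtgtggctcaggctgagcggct
JUN: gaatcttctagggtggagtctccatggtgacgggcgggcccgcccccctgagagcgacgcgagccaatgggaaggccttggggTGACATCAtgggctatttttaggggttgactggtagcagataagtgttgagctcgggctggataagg
ATF3: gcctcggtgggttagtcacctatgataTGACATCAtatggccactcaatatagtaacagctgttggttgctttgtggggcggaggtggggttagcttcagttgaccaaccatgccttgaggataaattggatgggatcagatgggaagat

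The sequences fall into kinds. FOS, FOSB and JUNB held TATAAA, the core of the TATA box, with its first base 33, 30 and 31 bases before the start site. JUN and ATF3 held TGACATCA, a form of TGACNTCA that dimers of JUN and ATF proteins are known to bind, 67 and 123 bases before the start. Over the full windows of 300 bases, searched on both strands, TATAAA was found in 4 of the 7 members with an entry and in 11.5% of 35116 promoters. TGACNTCA was in 3 of 7, against 7.72% of promoters, and the third gene was JUND, whose copy was TGACGTCA, the palindromic form that is contained in TGACNTCA. TGACGTCA was in 1.85% of promoters, and the AP-1 site TGACTCA was in 4.95% of promoters and in the FOSL2 window alone among the members. A CArG box, the site of serum response factor, was found in none of the 7 members and in 1.29% of promoters. Bases further upstream were not searched, the FOS window for example starting at chr14:75278578. A CArG box beyond the edge of a window would therefore be missed. GGGCGG, the core of an SP1 site, was in 6 of 7 members and 45% of promoters. CCGGAA, the core of an ETS site, was in 1 of 7, in FOSB, and in 17.2% of promoters. These matches are letters in a window and were not tested as sites.

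The 9 genes differed widely in level. Set per kilobase of exon (GENCODE release 29), so that genes can be compared, JUNB came first with a mean of 270 CPM per kb over the 12 libraries (range 121 to 402), followed by FOSL1 at 204 (130 to 352). JUN was at 108 (72 to 156), FOS at 95.2 (33.4 to 187), FOSB at 80.7 (29.4 to 140) and JUND at 75.8 (44.5 to 106). ATF3 followed at 55.7 (30.4 to 98.7), FOSL2 at 16.1 (12.7 to 23.5) and BATF3 at 1.01 (0.553 to 1.25). The ranges of neighbours from JUNB to ATF3 overlapped, while the FOSL2 and BATF3 ranges overlapped with no other member. JUNB shares 259 exon bases with HOOK2 on the opposite strand, and the strand setting of the counting is not given in the sources used here, so its level may hold reads of HOOK2. The other 8 members have no such overlap in that annotation. Summed over the 9 genes, AP-1 RNA ranged from 1428 CPM in stiff-to-soft replicate 2 to 3683 CPM in soft-to-soft replicate 3.

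The immediate early members and JUND followed replicate number more than condition. FOS lay between 174 and 401 CPM in the 4 libraries numbered 1, between 108 and 136 in those numbered 2 and between 419 and 607 in those numbered 3. These ranges did not overlap, whatever the conditioning. JUND, the member that is expressed most steadily in many cells, lay at 105 to 162, 82.8 to 101 and 189 to 198 CPM, and ATF3, a stress-induced factor, at 141 to 219, 123 to 160 and 324 to 399 CPM. FOSB was likewise lowest in number 2, at 163 to 284 CPM, against 352 to 682 in number 1 and 549 to 776 in number 3. By edgeR's quasi-likelihood test, in a model of condition and replicate number, 7 of the 9 members changed with replicate number, where 52.3% of all genes tested did. The adjusted p was 3.41e-05 for ATF3, 4.14e-05 for FOSB, 0.000104 for FOS, 0.000118 for JUND, 0.000154 for JUNB, 0.000954 for JUN and 0.00523 for FOSL2. FOSL1 (adjusted p = 0.0596) and BATF3 (adjusted p = 0.151) were not called.

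**Figure D1:**
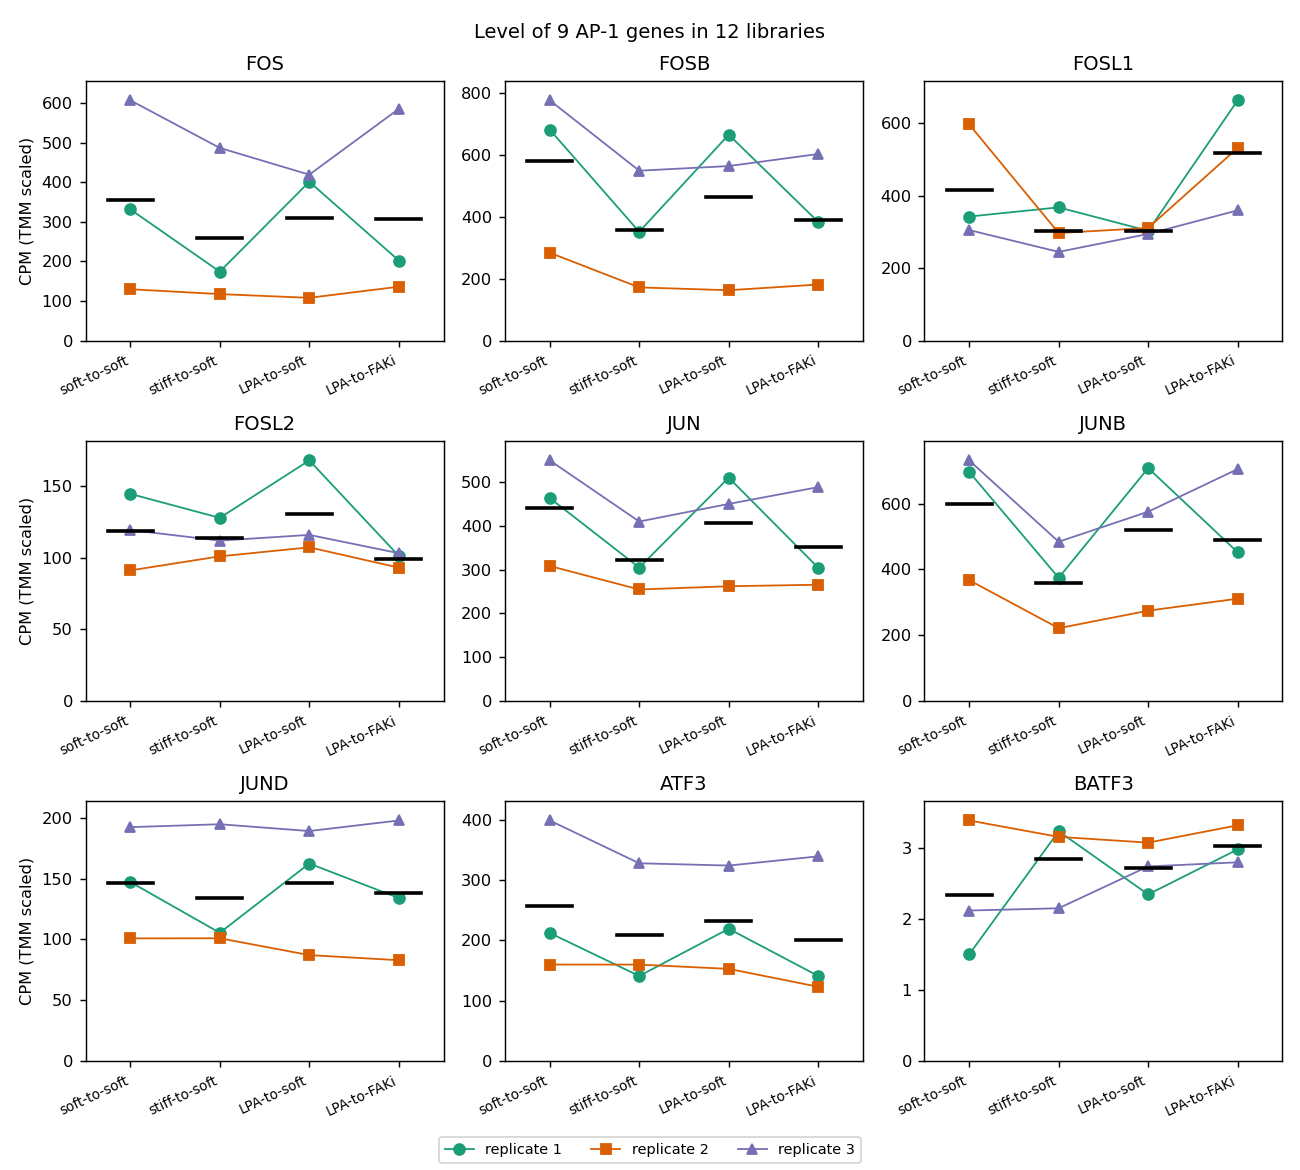
Level of each AP-1 gene in the 12 libraries, in CPM with TMM scaling on a linear axis from 0, with conditions on the horizontal axis. Points joined by a line share a replicate number and black bars are means of 3 libraries. The lines of FOS and JUND stay apart by replicate number, while FOSL1 is at its highest in LPA-to-FAKi for numbers 1 and 3 and in soft-to-soft for number 2.

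Shares of the sum of squares of log2 CPM gave the same picture as the ranges. Replicate number held 89% for JUND, 87.6% for FOS, 86.4% for ATF3, 82.4% for FOSB, 70.3% for JUNB and 68% for JUN, against a median of 50.5% over all genes. Condition held 1.94% for JUND and 3.33% for FOS, against a median of 19.3%. FOSL1 stood the other way, with 50.8% for condition and 23.7% for replicate number. The squamous markers moved with replicate number too: their summed level was 11500 to 14800 CPM in number 1, 5510 to 11200 in number 2 and 7050 to 9810 in number 3. The summed fibroblast markers were at 25 to 33.4, 14.2 to 20.9 and 16.4 to 20.7 CPM in the same order. The summed endothelial markers were at 5.74 to 14.4, 15.9 to 37.8 and 15.9 to 26.7 CPM, and the leukocyte markers at 16.8 to 46, 17.1 to 30.9 and 12.2 to 18.5 CPM. What a number stands for is not given, and the part of these levels in the AP-1 values was not tested.

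**Figure D2:**
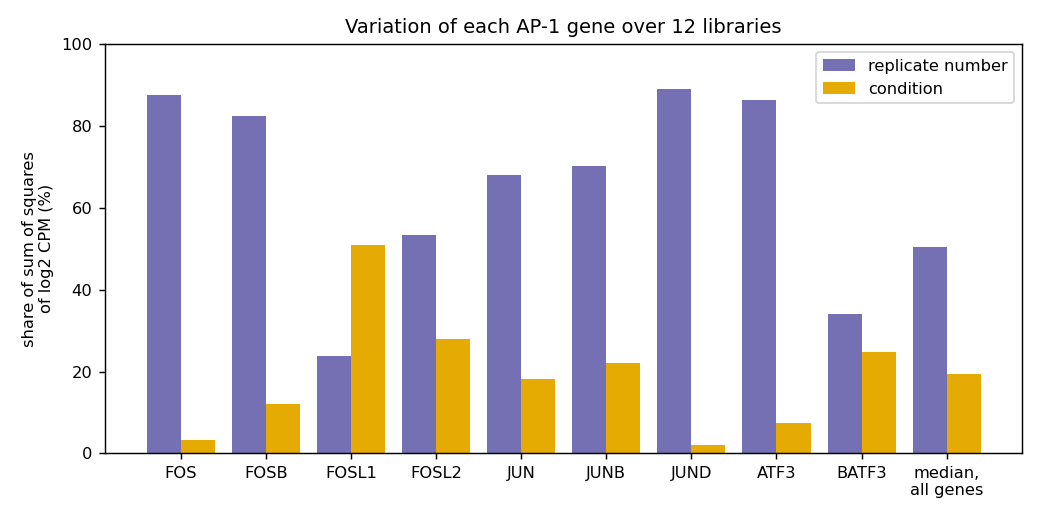
Share of the sum of squares of log2 CPM over 12 libraries that replicate number and condition hold, in percent, for each AP-1 gene and as the median over all genes tested. Replicate number takes the larger share in each gene but FOSL1, where condition holds 50.8%.

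Between stiff-to-soft and soft-to-soft cells, JUNB and FOSB showed the largest differences of the family, both lower after stiff conditioning in all 3 replicate numbers, and neither passed the edgeR threshold. JUNB stood at 696, 367 and 731 CPM in soft-to-soft replicates 1, 2 and 3 and at 374, 221 and 484 CPM in stiff-to-soft replicates 1, 2 and 3. The groups overlapped, yet stiff-to-soft was the lowest of the 4 conditions for JUNB within each replicate number. FOSB, which like FOS pairs with JUN proteins, stood at 682, 284 and 776 CPM in soft-to-soft and at 352, 172 and 549 CPM in stiff-to-soft replicates. Soft-to-soft was the highest condition for FOSB within each number. JUN, the partner of both, stood at 464, 309 and 551 CPM against 305, 255 and 411 CPM, and FOS at 332, 130 and 607 CPM against 174, 118 and 487 CPM. ATF3 was lower in replicates 1 and 3 (212 and 399 CPM against 141 and 328) and level in replicate 2 (159.9 against 159.8 CPM). FOS, FOSB, JUN, JUNB and ATF3 were thus lower in 3 of 3 pairs, the last by a near tie. That makes 5 of 9 members, against 15.7% of all genes tested. Summed squamous markers were at 5510 to 11500 CPM in stiff-to-soft and 9810 to 14800 in soft-to-soft cells. In the same order, fibroblast markers were at 20.4 to 27 and 14.2 to 33.4 CPM. Leukocyte markers were at 13.7 to 18.7 and 14.4 to 18.7, and endothelial markers at 11.1 to 37.8 and 11 to 22 CPM. Their part in the AP-1 values was not tested.

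Without replicate number in the model, edgeR called 0 of 9 members and 0 of 15437 genes in this comparison (0%), and in each of the other comparisons the count was also 0 (0%). At an unadjusted p under 0.05 that fit gave 300 genes and 0 members here. With replicate number as a block it called 90 genes (0.583%), of which 37 were higher and 53 lower, again with 0 members, and 4 members had an unadjusted p under 0.05, as did 1580 genes (10.2%). JUNB then differed by -0.74 ± 0.143 (log2 fold change ± SE, 95% interval -1.05 to -0.43), with an adjusted p of 0.0501 by edgeR, just outside the threshold. The same difference without the block was -0.73 ± 0.42. FOSB differed by -0.72 ± 0.168 (-1.09 to -0.35, adjusted p = 0.101 by edgeR), JUN by -0.43 ± 0.136 (-0.73 to -0.13, adjusted p = 0.228) and FOS by -0.44 ± 0.24 (-0.97 to 0.08, adjusted p = 0.592). FOSL1 (-0.43 ± 0.196), ATF3 (-0.28 ± 0.131), JUND (-0.14 ± 0.127), FOSL2 (-0.04 ± 0.103) and BATF3 (0.33 ± 0.23) had adjusted p from 0.483 to 0.941 in the edgeR fit with the block. The median over the 9 members was -0.43, against -0.002 over all genes, and 8 of 9 members were below 0.

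**Figure D3:**
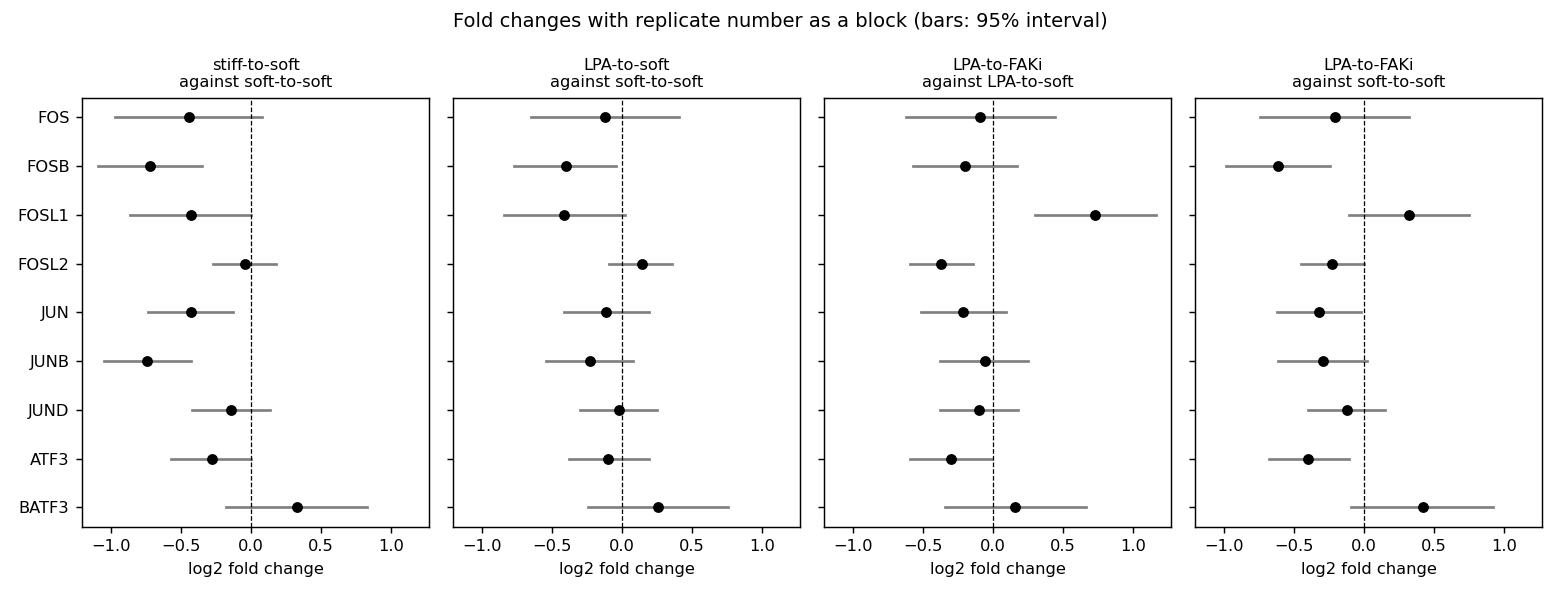
Log2 fold change of the 9 AP-1 genes in 4 comparisons, from edgeR with replicate number as a block. Points are estimates and bars 95% intervals that are not adjusted for the number of genes. JUNB and FOSB lie lowest in the first panel, and FOSL1 stands above 0 in the third, where FOSL2 stands below it.

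The call for JUNB turned on the tool and on single libraries. With the block, DESeq2 called JUNB (adjusted p = 3.26e-05), FOSB (0.000749) and JUN (0.0477) lower in stiff-to-soft cells, among 443 genes (2.87%). Limma voom with the block called JUNB alone of the members (adjusted p = 0.0354), among 119 genes (0.771%). Neither tool called a member without the block. In edgeR with the block, JUNB was called when LPA-to-soft replicate 1 (adjusted p = 0.0106, 0.479% of genes called), LPA-to-FAKi replicate 1 (0.0117, 1.45%) or LPA-to-FAKi replicate 3 (0.0437, 0.608%) was left out, libraries of neither condition compared. Its value was then -0.75, -0.74 and -0.74. FOSB was called without LPA-to-soft replicate 1 (adjusted p = 0.0103). Without both soft-to-soft replicates 1 and 2, JUNB differed by -0.65 ± 0.21 (adjusted p = 0.725 by edgeR with the block), from the 1 soft-to-soft library left, which is assumed to vary like the others. Over the 18 fits with the block the JUNB value ran from -0.79 to -0.65, with adjusted p from 3.26e-05 to 0.725, and the FOSB value from -0.8 to -0.58, with adjusted p from 0.000749 to 0.957. The JUN value ran from -0.52 to -0.35 over those fits, with adjusted p from 0.0477 to 1.

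After conditioning with LPA no member passed the edgeR test against soft-to-soft cells, which are the control samples of this comparison as well. The LPA-to-soft levels in replicates 1, 2 and 3 were 665, 163 and 564 CPM for FOSB, 708, 274 and 575 CPM for JUNB and 401, 108 and 419 CPM for FOS. Set beside the soft-to-soft values above, replicate 1 was over the control for JUNB and FOS, and replicates 2 and 3 were under it. FOSB differed by -0.4 ± 0.168 (adjusted p = 0.603) and FOSL1 by -0.41 ± 0.196 (adjusted p = 0.651) in the edgeR fit with the block, and the other 7 members had adjusted p from 0.726 to 0.978. Over the 18 fits with the block the FOSB value ran from -0.71, without LPA-to-soft replicate 1, to -0.23, without LPA-to-soft replicate 2. The FOSL1 value ran from -0.61, without soft-to-soft replicate 1, to -0.11, without soft-to-soft replicate 2. With all libraries and the block, 7 of 9 members were below 0, and their median was -0.11, against -0.011 over all genes. With both soft-to-soft replicates 1 and 2 left out, FOSB and FOSL1 each stood at -0.27 (SE 0.25 and 0.19), and 6 of 9 members were below 0. With and without the block edgeR called 0 members and 0 genes (0%). At an unadjusted p under 0.05 it gave 1231 genes (7.97%) and 1 member with the block, and 211 genes and 0 members without it. With the block, DESeq2 called 0 members among 72 genes (0.466%) and limma voom 0 among 0 genes (0%).

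With FAK inhibited at replating, after conditioning with LPA, FOSL1 had higher and FOSL2 lower values than in LPA-to-soft cells, and neither passed the edgeR test. FOSL1 stood at 664, 532 and 360 CPM in LPA-to-FAKi replicates 1, 2 and 3, against 304, 312 and 295 CPM in LPA-to-soft replicates. All 3 libraries with the inhibitor were above all 3 without it. The summed leukocyte markers also differed without overlap, at 18.5 to 46 CPM with the inhibitor and 12.2 to 17.9 without it. Most of that sum was CD68, with a median of 14.6 CPM beside 17.5 CPM for the sum, and PTPRC and CD3E had medians of 0. The summed endothelial markers were at 5.74 to 15.9 and 14.4 to 23.3 CPM, and the part of either in the AP-1 values was not tested. FOSL2, the other Fos-related antigen, stood the other way, at 101, 93.1 and 103 CPM with the inhibitor and 168, 107 and 116 CPM without it, again with no overlap. Groups that do not overlap were seen for these 2 of 9 members and for 11.4% of all genes tested. FOSL1 differed by 0.73 ± 0.196 (95% interval 0.3 to 1.16, adjusted p = 0.0913) and FOSL2 by -0.37 ± 0.103 (-0.59 to -0.14, adjusted p = 0.0989) in edgeR with the block. Without the block the differences were 0.77 ± 0.271 and -0.4 ± 0.191, both with an adjusted p of 0.839 by edgeR. EdgeR called 0 genes with or without the block (0%), while 3439 genes (22.3%) and 3 members had an unadjusted p under 0.05 with it, and 838 genes (5.43%) and 1 member without it.

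DESeq2 with the block called FOSL2 lower (-0.36, adjusted p = 0.0219) and no other member, among 1231 genes (7.97%), and limma voom with the block called 0 members among 37 genes (0.24%). Over the 17 fits with the block the FOSL2 value ran from -0.46 to -0.24 with adjusted p from 0.0219 to 0.383, and the FOSL1 value from 0.53 to 0.92 with adjusted p from 0.0297 to 0.376. The lowest of these for FOSL1 came with soft-to-soft replicate 2 left out, the fit in which edgeR called it among 639 genes (4.05%). Of the other 7 members, BATF3 was higher with the inhibitor in 3 of 3 pairs, and the rest differed in direction between replicates. In replicate 1 the inhibitor went with lower FOS (202 against 401 CPM), JUNB (452 against 708 CPM) and JUN (305 against 511 CPM). In replicate 3 the same genes stood at 585 against 419, 705 against 575 and 489 against 451 CPM. FOS, JUNB and JUN thus differed in opposite directions between these replicate numbers, and the adjusted p of the 6 members other than FOSL1, FOSL2 and ATF3 (0.21) ran from 0.389 to 0.861 in the edgeR fit with the block.

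Compared with untreated soft-to-soft cells, the LPA-to-FAKi cells had less FOSB in each replicate number, at 383, 181 and 603 CPM against 682, 284 and 776 CPM. FOSB, JUN, JUNB and ATF3 were lower in 3 of 3 pairs, which is 4 of 9 members against 17.7% of all genes tested. This comparison shares its control samples with the first 2, and 7 of 9 members were below 0 in edgeR with the block. Their median was -0.23, against 0.002 over all genes. In edgeR with the block FOSB differed by -0.61 ± 0.168 (-0.98 to -0.24, adjusted p = 0.129) and ATF3 by -0.4 ± 0.131 (adjusted p = 0.179), and 0 members were called among 87 genes (0.564%), 24 of them higher and 63 lower. Without the block edgeR called 0 genes (0%), with 548 genes and 0 members at an unadjusted p under 0.05, against 2559 genes (16.6%) and 4 members with it. DESeq2 with the block called FOSB lower (-0.61, adjusted p = 0.00677) among 704 genes (4.56%), and limma voom with the block called 0 members among 176 genes (1.14%). EdgeR with the block called FOSB when LPA-to-soft replicate 1 was left out (adjusted p = 0.0252), among 120 genes (0.766%). Over 18 fits with the block the FOSB adjusted p ran from 0.00677 to 0.651, the last with both soft-to-soft replicates 1 and 2 left out, where the difference was -0.47 ± 0.244.

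The 2 conditions of the learned class, stiff-to-soft and LPA-to-soft, were also compared with each other. JUNB was the member with the smallest p, lower after stiff conditioning by -0.51 ± 0.143 (adjusted p = 0.452 by edgeR with the block), with 374, 221 and 484 CPM against 708, 274 and 575 CPM. Over the 17 fits with the block it ran from -0.63, without LPA-to-soft replicate 3, to -0.28, without LPA-to-soft replicate 1, with adjusted p from 0.0612 to 0.858. EdgeR with the block called 0 members and 1 gene (0.00648%), and without the block 0 genes (0%). At an unadjusted p under 0.05 these fits gave 1454 genes (9.42%) and 2 members, and 215 genes and 0 members. With the block, DESeq2 called 0 members among 66 genes (0.428%) and limma voom 0 among 1 gene (0.00648%).

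With the conditions joined into classes of 6 libraries, FOSL1 was the member that differed most. It lay between 245 and 368 CPM, with a mean of 304 ± 39.4 CPM (SD, n = 6), in the learned class, and between 306 and 664 CPM, with a mean of 467 ± 150 CPM (SD, n = 6), in the class that had not learned. The classes overlapped, and the spread was wider in the class that had not learned. In that class LPA-to-FAKi had a mean of 518.8 ± 152.5 CPM (SD, n = 3). Soft-to-soft replicates 1 and 3, at 343 and 306 CPM, lay within the range of the learned class, and replicate 2 was at 598 CPM. The log2 difference was -0.62 ± 0.186 without the block, rank 37 of 15437 genes by p, with an adjusted p of 1 by edgeR. With the block it was -0.59 ± 0.145 (-0.91 to -0.28, adjusted p = 0.249 by edgeR). EdgeR called 0 members in either fit, among 0 genes (0%) without the block and 1 gene (0.00648%) with it, and at an unadjusted p under 0.05 it gave 446 genes (2.89%) and 1535 genes (9.94%) and 1 member, FOSL1, in each. With the block, DESeq2 called 0 members among 129 genes (0.836%) and limma voom 0 among 1 gene (0.00648%). Without soft-to-soft replicates 1 and 2 FOSL1 differed by -0.65 ± 0.116 (adjusted p = 0.135 by edgeR with the block). The class that had not learned was then soft-to-soft replicate 3 and the LPA-to-FAKi libraries, so this value rests mostly on LPA-to-FAKi. JUNB differed by -0.33 ± 0.151 with the block (adjusted p = 0.502 by edgeR).

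FOSL1 and FOS are both partners of JUN proteins, and their balance shifted from library to library. The ratio of FOSL1 to FOS in CPM was 1.03, 4.6 and 0.503 in soft-to-soft replicates 1, 2 and 3. It was 2.11, 2.53 and 0.504 in stiff-to-soft, 0.756, 2.88 and 0.704 in LPA-to-soft and 3.28, 3.9 and 0.615 in LPA-to-FAKi replicates. All 4 libraries numbered 3 held less FOSL1 than FOS in CPM, and all 4 numbered 2 held at least 2.53 times as much. The libraries numbered 1 lay on either side of 1. These ratios are not set per kilobase of exon (1887 bases for FOSL1 and 3238 for FOS). A ratio of 1 in CPM is thus not an equal level of the 2 genes, and only shifts between libraries can be read from it. BATF3, a factor known from dendritic cells, had 112 to 408 counts per library, which is 1.5 to 3.39 CPM, and no comparison called it.

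**Figure D4:**
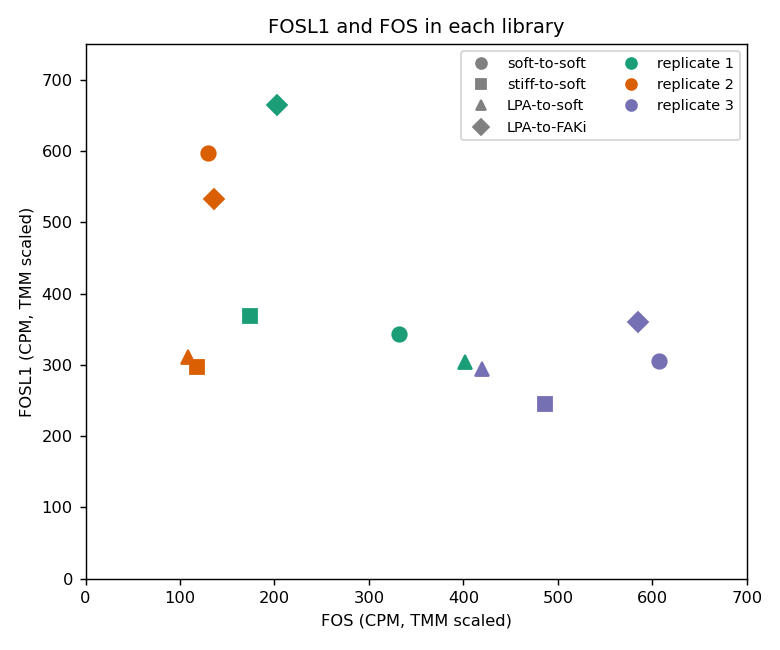
FOSL1 against FOS in each of the 12 libraries, both in CPM with TMM scaling on linear axes, with colour for replicate number and shape for condition. Libraries numbered 2 sit at 108 to 136 CPM of FOS, those numbered 3 at 419 to 607, and FOSL1 reaches 664 CPM in LPA-to-FAKi replicate 1.

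Genes around AP-1 were read from 4 lists. Of the 37 other immediate early genes, 9 fell and 0 rose after stiff conditioning, relative to soft-to-soft cells, in the edgeR fit with the block, and 0 were called without it. The calls with the smallest p were IER3 (-0.46, adjusted p = 0.0223), IER2 (-0.6, 0.0282) and IER5 (-0.31, 0.0299), all early response genes, and EGR3 (-1.32, 0.0358), a zinc finger factor induced by growth factors. IER3 went from 524 ± 85.9 to 379 ± 50.8 CPM and IER2 from 489 ± 164 to 322 ± 108 CPM (SD, n = 3). The median of the list was -0.38 with 36 of 37 below 0, beside -0.43 over the 9 members and -0.002 over all genes. Of 34 AP-1 target genes, 1 rose and 3 fell. The collagenase MMP1 fell by 1.26 (adjusted p = 0.0134), the stromelysin MMP10 fell by 1.52 (0.012) and HBEGF, a ligand of the EGF receptor, fell by 0.41 (0.0367), while CSF2, a cytokine of myeloid cells, rose by 1.32 (0.00384), all log2 values of edgeR with the block. The median of the target list was -0.12, with 21 of 34 below 0. With replicates 1 and 2 of soft-to-soft left out, edgeR with the block called 0 genes in all and 0 of either list, with medians of -0.38 for the immediate early genes (35 of 37 below 0) and -0.02 for the targets. DESeq2 with the block called 19 immediate early genes, all lower, and limma voom called 11, where 2.87% and 0.771% of all genes were called. Among the targets DESeq2 called 2 higher and 5 lower, and limma voom 1 higher and 4 lower.

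In LPA-to-FAKi against soft-to-soft cells, with the same fit, 3 of the 37 immediate early genes fell. They were EGR3 (-1.46, adjusted p = 0.0251), the nuclear receptor NR4A3 (-2.39, 0.0382) and the small GTPase RHOB (-0.57, 0.0401). Of the 34 target genes, CSF2 rose (1.16, adjusted p = 0.0111), and MMP10 (-1.83, 0.0111) and MMP1 (-1.34, 0.0192) fell. The median was -0.29 for the immediate early list and 0.12 for the targets, against 0.002 over all genes. Without both soft-to-soft libraries 0 genes were called here too, with medians of -0.37 and 0.26, while DESeq2 with the block called 14 immediate early genes lower and limma voom called 7. Among the 34 targets DESeq2 with the block called 4 higher and 4 lower here, and limma voom 1 higher and 4 lower. These tools called 4.56% and 1.14% of all genes. Of 12 other family members and bZIP partners and 21 upstream kinases, substrates and turnover factors, edgeR called 0 in every comparison with or without the block. With the block, 4 of each list had an unadjusted p under 0.05 between stiff-to-soft and soft-to-soft cells, against 10.2% of all genes. DESeq2 with the block called 1 higher and 1 lower in each of these lists in that comparison, and limma voom 1 higher and 1 lower among the bZIP partners. In LPA-to-FAKi relative to soft-to-soft cells DESeq2 called 1 bZIP partner lower and 1 upstream gene in each direction, and limma voom 1 bZIP partner lower. In the comparisons other than these 2 edgeR called 0 genes of all 4 lists. With the block, 33 of 37 immediate early genes were still below 0 in LPA-to-soft against soft-to-soft cells, with a median of -0.18. In stiff-to-soft against LPA-to-soft cells 36 of 37 were below 0, with a median of -0.2. DESeq2 with the block called 1 target higher, 2 targets lower and 1 upstream gene higher between LPA-to-soft and soft-to-soft cells. For LPA-to-FAKi against LPA-to-soft cells the list medians with the block were 0.22 for targets, -0.18 for immediate early genes, -0.21 for bZIP partners and -0.01 for upstream genes.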

How the data were processed

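The authors deposited whole-number read counts per gene symbol for 12 libraries, which entered every test. The normalized log2 values that the authors also deposited were not used. Cutadapt, FastQC, STAR, HTSeq, DESeq2 and the build hg19 are named in the submitters' processing notes, whereas versions, order, settings, strand setting and annotation were not given in the sources used here. Per the labels, the library kit was a stranded TruSeq kit. A strand setting that differed from the kit, or reads in overlapping genes, would change the counts of JUNB.

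Counts were tested in R 4.3.3 with edgeR 4.0.16 (TMM scaling, filterByExpr, quasi-likelihood F test, Benjamini-Hochberg adjustment over 15437 genes), in a model of the 4 conditions or of the 2 classes. Shares and correlations used log2 CPM with a prior count of 2. Alternatives were a replicate block, DESeq2 1.42.0, limma voom (limma 3.58.1), median-ratio size factors, no filter, leaving out each library, leaving out soft-to-soft replicates 1 and 2, halving the counts of the other 10 libraries, and fitting only the conditions compared. For the gene lists, the tools and the soft-to-soft alternatives were added after seeing the data. The fits were tested on simulated data.

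After condition means were removed, libraries with the same replicate number, a number from the sample titles, correlated with r from 0.312 to 0.659 (18 pairs), and the rest from -0.517 to 0.0372 (36 pairs). All 18 exceed 0.1, so values with the block stand beside the results.

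The members and lists were chosen with earlier results of these data known. The text accounts for every member, names listed genes called with the block (at most 4 per list and comparison, by p), and the 3 genes most correlated with each member, of which 1 each for JUN and ATF3 is not reported here. Promoters come from RefSeq (GRCh38.p14) and exon lengths from GENCODE release 29 (GRCh38), which is not the build of the counts, and serve only for levels per kilobase and overlaps.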

Additional observations from a re-analysis of the deposited data

How the results depend on the processing

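Counts of called members moved with the replicate block and the tool. Between stiff-to-soft and soft-to-soft cells they were 0 in edgeR with and without the replicate block (0.583% and 0% of all genes). With replicate block they were 3 in DESeq2 (2.87%) and 1 in limma voom (0.771%). With the counts of 10 libraries halved and replicate block, 1 was called (JUNB, adjusted p = 0.0483 by edgeR), among 0.674% of genes. Over the fits that left out 1 library they were 0 to 2 (0% to 1.45% of genes). In LPA-to-FAKi against LPA-to-soft cells they were 1 in DESeq2 with replicate block (7.97%) and 0 to 1 over leave-one-out fits (0% to 4.05%). In LPA-to-FAKi against soft-to-soft cells they were likewise 1 (4.56%) and 0 to 1 (0% to 1.94%). No fit without the block called a member between conditions or classes, and the other comparisons had 0 members in each fit run. For replicate number, 7 to 8 members were called over the alternatives, where 39.6% to 56.4% of all genes tested were called. Each alternative kept the 7 members of the reported fit. BATF3 had the fewest counts, 112 to 408 per library. Where a call changed, the cause was not tested.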

Other observations

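For each member, the genes with the most similar pattern were taken by Pearson's r of log2 CPM over 12 libraries, after the mean of each replicate number was removed. The libraries are the same for both genes of a pair, and the values are a description. DUSP1, a phosphatase of MAP kinases, was closest to FOS (r = 0.969), followed by RBBP8NL (0.929) and CDK18 (0.918). EGR1 was closest to JUN (0.966), followed by EML2 (0.964), and IER2 to JUNB (0.975), followed by PVRL1 and SLC22A18 (both 0.949). IL17RE and GJB6 (both 0.96) and IFITM2 (0.943) were closest to FOSB. For FOSL1 they were GPR153 (0.977), NFRKB (0.976) and TRIP6 (0.971), a zyxin-family protein of focal adhesions, and for FOSL2 ZDHHC20 (0.978), SPAST (0.974) and FOXN3 (0.972). JUND was closest to GNAI2 (0.992), C10orf91 (0.918) and TMEM88 (0.912), the last 2 with means of 0.655 and 0.392 CPM. ATF3 was closest to SLITRK6 (0.986) and DUOXA2 (0.971, at a mean of 0.0538 CPM), and BATF3 to TGFBRAP1 (0.962), ZBED4 (0.951) and ATP11A (0.943).

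Among the members themselves, on the same scale and over the same 12 libraries, FOSB and JUN had r = 0.927, JUN and JUNB 0.914, FOS and JUN 0.912, FOSB and JUNB 0.892 and FOS and FOSB 0.826. FOSL1 stood apart from this group, with r = -0.161 to FOS, 0.00722 to FOSB, -0.194 to JUN and 0.168 to JUNB. FOSL1 and FOSL2 had r = -0.814.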
